A study of Mus musculus with 5 samples.

Results

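The 37 genes described here encode the machinery of DNA replication and entry into S phase: the proteins that mark and license origins, the replicative helicase and its activators, the E-type cyclins, polymerases, the sliding clamp and its loader, single-strand binding proteins, lagging strand enzymes and the enzymes that supply deoxynucleotides. They were listed by symbol, and all 37 were found among the 19699 entries of the table and passed the filter on low values, as did 12838 entries in all. The RNA came from the central airways, trachea and lung included, dissected from C57 mouse embryos at E13.5. The 2 mutant libraries came from embryos with Prmt5, an arginine methyltransferase gene, deleted in the lung epithelium. The design text names Shh, a gene of the airway epithelium, beside Prmt5 in their genotype but does not describe the alleles, and the genotype label calls them Prmt5 knockdown. The 3 control libraries are labelled WT, and the design text calls them litter controls. A treatment text on adipogenic culture stands in the labels of all 5 samples and does not describe embryonic tissue. Nothing says how many embryos a library held, so the p-values speak only of how far these libraries spread, and some of that spread may be technical.

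Replication starts at origins bound by the origin recognition complex. Cdc6 and Cdt1 load the MCM helicase there before S phase, a step called licensing, and geminin blocks Cdt1 afterwards. Cyclin E with its kinase, and later the loading of Cdc45 and the GINS complex, turn the loaded helicase into a moving fork. Transcription factors of the E2F family switch on many of these genes as cells leave G1, and pocket proteins such as Rb hold E2F in check. In the embryonic lung the genes mark cycling cells of epithelium and mesenchyme alike. In whole tissue, fewer cycling cells and less RNA per cell cannot be told apart.

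E2F sites near the start are the feature that textbooks give as the common control of these genes, so promoters of 250 bases before to 50 after the start were searched for them. RefSeq promoters were matched for 29 of the 37 genes, that is all but Ccne2, Gins1, Gins2, Gins4, Gmnn, Mcm4, Pole and Rfc2. The E2F letters searched were TTTCCCGC, TTTCGCGC, TTTGCCGC and TTTGGCGC on both strands, and matches on opposite strands can overlap each other. They stood in the promoters of 12 of the 29 genes (41.4%), in 33.3% of the promoters of other replication genes and in 5.26% of those of G2 and mitosis genes. Of all genes tested with a promoter, 4.82% held a match. The 12 genes were Cdc6, Cdt1, Gins3, Lig1, Mcm3, Mcm5, Mcm6, Mcm7, Orc1, Pola1, Pold1 and Rfc3. The 8 windows that lie wholly before the RefSeq start site are shown to let the sites be compared, 5′ to 3′ on the gene's strand, with the matched letters in capitals (GRCm38.p6). Gene starts in GENCODE M21 differ for some: by these the windows of Gins3, Cdc6 and Mcm7 lie inside the gene, and that of Orc1 spans the start. Mcm5 and Mcm6 each hold a pair of overlapping matches that face each other, and Mcm6 has another match nearer the start.
Mcm5, chr8:75109342-75109381, plus strand: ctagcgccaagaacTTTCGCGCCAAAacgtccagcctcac
Mcm6, chr1:128359790-128359829, minus strand: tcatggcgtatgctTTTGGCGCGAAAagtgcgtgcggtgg
Mcm6, chr1:128359731-128359766, minus strand: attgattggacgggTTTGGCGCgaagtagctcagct
Mcm7, chr5:138172027-138172062, minus strand: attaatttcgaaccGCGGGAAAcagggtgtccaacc
Cdc6, chr11:98907999-98908034, plus strand: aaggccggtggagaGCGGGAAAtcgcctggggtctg
Orc1, chr4:108579413-108579448, plus strand: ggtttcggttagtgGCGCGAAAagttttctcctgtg
Gins3, chr8:95633504-95633539, plus strand: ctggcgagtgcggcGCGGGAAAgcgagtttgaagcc
Pola1, chrX:93632272-93632307, minus strand: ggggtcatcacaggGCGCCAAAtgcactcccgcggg

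The 250 bases before the Mcm6 start, the member promoter with the most matches (3), show the spacing of the paired and the single match.
Mcm6 upstream, chr1:128359706-128359955, minus strand: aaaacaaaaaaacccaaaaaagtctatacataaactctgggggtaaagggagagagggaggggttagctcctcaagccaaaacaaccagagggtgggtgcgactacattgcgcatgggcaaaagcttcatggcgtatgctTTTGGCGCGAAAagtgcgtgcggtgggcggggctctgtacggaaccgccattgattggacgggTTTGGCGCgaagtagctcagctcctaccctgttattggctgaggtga
A match is a description of letters and no evidence of binding. The CHR letters, TTTGAA and TTCGAA, which mark many late cell cycle promoters, gave another split: they stood in 20.7% of the member promoters, in 78.9% of those of G2 and mitosis genes and in 15.8% of those of genes tested. The CCAAT box, the letters CCAAT on both strands, stood in 65.5%, 84.2% and 42.5%.

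**Figure D1:**
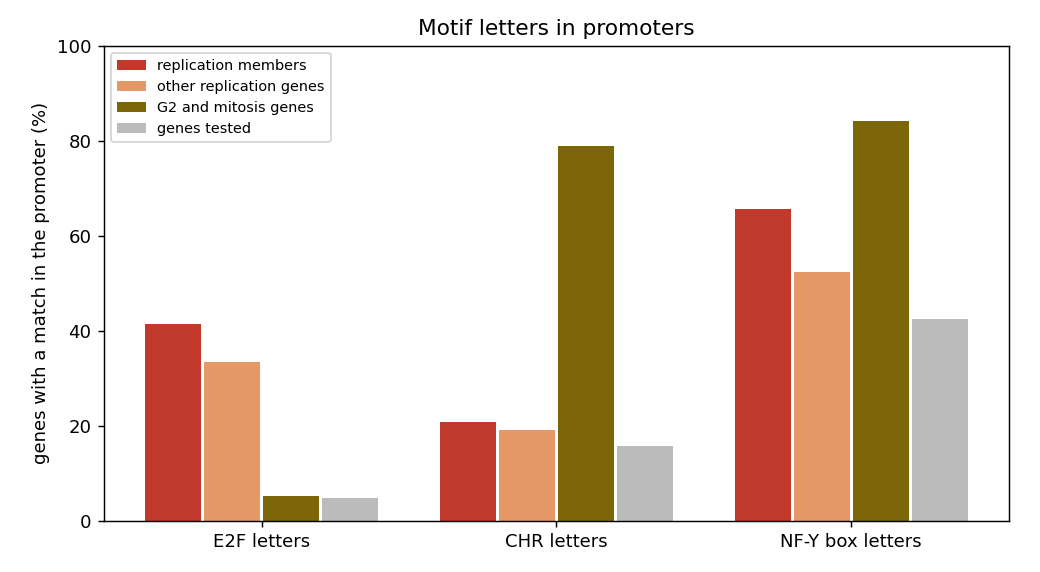
Share of genes (%) with at least 1 match to each kind of motif letters in a RefSeq promoter, for 29 replication members, 42 other replication genes, 19 G2 and mitosis genes and 9478 genes tested. The E2F letters stand in 41.4% of the member promoters and 4.82% of those of genes tested, while the CHR letters are most frequent, at 78.9%, among G2 and mitosis genes.

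Levels are given in FPKM, reads scaled by the length of the gene and the depth of the library, and changes as log2(FPKM + 1) of mutants minus controls, which understates the change of low genes. Depth was even, at 15652503 to 18682463 reads per library, as recovered from the steps between FPKM values. Each member rested on 107 reads or more in each library, with Fen1 the thinnest and Rrm1, at up to 6473, the deepest. Prmt5 itself was at 23.7 and 20.1 FPKM in mutants and 28.7, 26.4 and 25.8 FPKM in controls (log2 change -0.29, limma adjusted p = 0.234), and whole tissue and reads outside the deleted part make it only a partial check. The Y-linked genes Ddx3y, Eif2s3y, Kdm5d and Uty summed to 31.5 and 27.1 FPKM in mutants and to 23.0, 18.8 and 4.49 FPKM in controls, so the share of male RNA differed with genotype and was lowest in control replicate 3. Epithelial markers were present in every library and summed to 286 and 287 FPKM in mutants and to 709, 351 and 257 FPKM in controls, with 0 of 8 past the threshold. Of the 8, 6 had a negative change and 2 a positive one. Epcam was at 38.2 and 40.1 FPKM in mutants and 124, 66.5 and 51.4 FPKM in controls (log2 change -0.92, limma adjusted p = 0.181). Cdh1 was at 22.1 and 22.5 FPKM in mutants and 51.6, 24.6 and 23.4 FPKM in controls (log2 change -0.46). Log2 Epcam, used below as a covariate, thus itself differed with genotype. Markers of skeletal muscle were lower in mutants (5 of 5 tested), as were 2 of 2 cartilage markers tested and 1 of 4 neuronal markers. All 6 listed muscle markers, tested or not, summed to 6.02 and 16.0 FPKM in mutants and 128, 94.0 and 105 FPKM in controls. The 4 neuronal markers summed to 32.9 and 25.6 FPKM in mutants and 57.3, 44.8 and 62.1 FPKM in controls. Of 7 mesenchymal markers 1 passed, higher in mutants, but 5 had a negative change and 2 a positive one (median log2 change -0.30). The 7 summed to 1694 and 1441 FPKM in mutants and to 1800.5, 1811 and 2341 FPKM in controls. Mesothelial markers, with 0 of 3 past the threshold, summed to 49.9 and 72.5 FPKM in mutants and 8.66, 38.6 and 25.1 FPKM in controls. The part of these cell types in the replication values was not tested.

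None of the 37 replication genes passed the test for a difference between mutants and controls. With limma, a linear model whose p-values were adjusted over all genes tested, 0 of 37 had an adjusted p under 0.05, against 2.36% of the 12838 genes tested (0.989% higher and 1.37% lower in mutants). Voom, the same kind of model on the recovered reads with weights for depth, also called 0, against 4.75% of all genes. The smallest adjusted p of a member was 0.153, for Gins4. At an unadjusted p under 0.05 there were 5 members, against 18.9% of all genes: Gins1, Gins2, Gins4 and Rfc4 were higher in mutants (6.53% of all genes were) and Ccne2 lower (12.3%). Voom had 6 members at that level, against 2529 of the 12838 genes tested. The log2 changes ran from -0.31 to 0.42 with a median of 0.11, where the median of all genes tested was -0.06. The sign was positive for 30 members and negative for 7, and it was positive for 38.9% of all genes.

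The main fit, limma with no covariate, bounds how large a difference in FPKM + 1 could have been. For low genes the bound on FPKM itself is wider. The male share and the cell type markers, which differed between the groups, are not taken into account. The 95% interval of the change, unadjusted and for each gene alone, lay inside a 2-fold change either way for 37 of 37 members, against 87.6% of all genes tested and 93.5% of those with a mean of at least 5 FPKM. It lay inside a 1.5-fold change for 29 members, against 62.4% and 74.2%. The 8 members with wider bounds were Gins1, Rfc4, Rrm2, Pcna, Cdt1, Fen1 and Gmnn on the upper side and Ccne2 on the lower side.

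**Figure D2:**
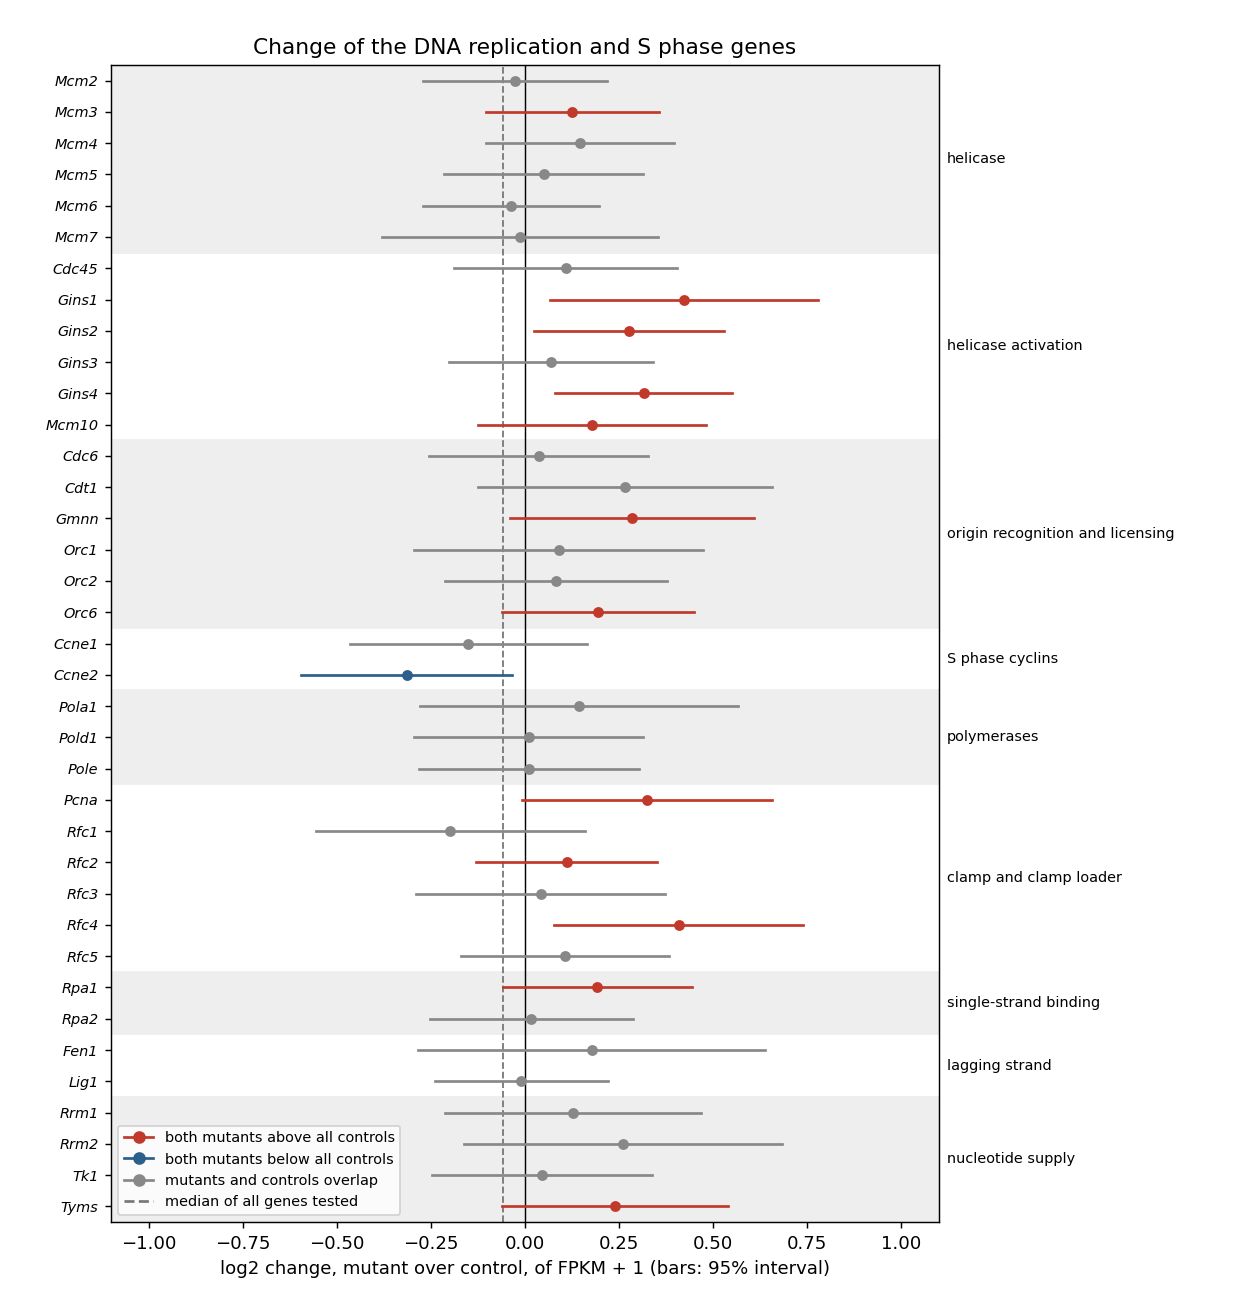
Log2 change of FPKM + 1, mutant over control, for each of the 37 genes (points) with its 95% interval (bars), grouped by role. Gins1 at 0.42 and Rfc4 at 0.41 are the highest, Ccne2 at -0.31 is the lowest, and most intervals cross 0.

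**Figure D3:**
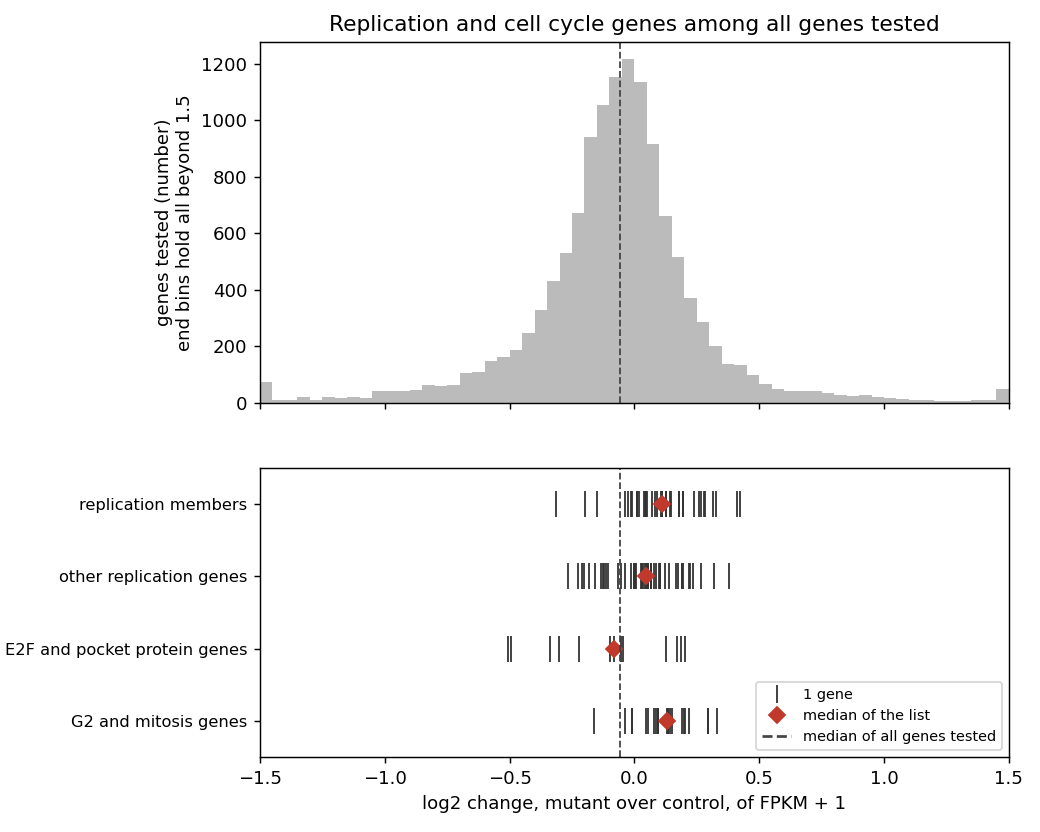
Top, number of the 12838 genes tested by log2 change, mutant over control. Bottom, the same value for each gene of 4 lists with the list median, at 0.11 for the replication members, 0.05 for other replication genes, -0.08 for E2F and pocket protein genes and 0.13 for G2 and mitosis genes, against -0.06 for all genes tested.

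Both mutants lay above all 3 controls for 12 members (13.2% of all genes did so) and below them for 1 member (24.4% of all genes), and the groups overlapped for the other 24. In either direction 37.6% of all genes had groups apart. An exact permutation test of a single gene, or of the ratios below, cannot go below p = 0.1 with the 10 splits of 5 libraries. The 12 genes were 4 of the 6 helicase activators, 3 of the 6 clamp genes and 2 of the 6 origin genes. The helicase, single-strand binding and nucleotide groups held 1 each, and the cyclin, polymerase and lagging strand groups held none.

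No licensing gene reached the threshold. Gmnn, which encodes the Cdt1 inhibitor geminin, was at 24.996 and 26.5 FPKM in mutants and 20.9, 24.4 and 18.1 FPKM in controls (log2 change 0.28, SE 0.14, limma adjusted p = 0.326). The 2 groups did not overlap but came close, since control replicate 2 stood at 24.4 FPKM. Orc6, a subunit of the origin recognition complex, was at 46.3 and 45.0 FPKM in mutants and 36.8, 43.3 and 39.4 FPKM in controls (adjusted p = 0.393). Cdt1, the loading factor, was at 34.2 and 30.2 FPKM in mutants and 21.8, 32.4 and 26.5 FPKM in controls, with overlap. Orc1, Orc2 and Cdc6 had log2 changes of 0.09, 0.08 and 0.04.

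The ratio of Cdt1 to its inhibitor does not depend on how libraries are scaled. It was 1.37 and 1.14 in mutants and 1.05, 1.33 and 1.46 in controls. The mutant ratios lay within the range of the controls, with means of 1.25 ± 0.161 (SD, n = 2) in mutants and 1.28 ± 0.214 (SD, n = 3) in controls (two-sided exact permutation p = 0.9).

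The helicase subunits had changes of both signs, 3 positive and 3 negative, with a median log2 change of 0.02. Mcm2 to Mcm7 form a ring of 6 different proteins that unwinds DNA, and their summed level was 309.8 and 303.3 FPKM in mutants and 307, 308 and 276 FPKM in controls. That is 307 ± 4.57 (SD, n = 2) in mutants and 297 ± 18.3 FPKM (SD, n = 3) in controls, a ratio of 1.03. The log2 changes of the 6 genes ran from -0.04 for Mcm6 to 0.15 for Mcm4. Mcm3 alone had groups that did not overlap, at 53.7 and 52.4 FPKM in mutants and 48.6, 50.5 and 46.6 FPKM in controls (log2 change 0.13, adjusted p = 0.556). Per length, Mcm2 was the scarcest of the 6, with 8.58% and 8.15% of the sum in mutants and 9.04%, 8.33% and 9.08% in controls. Its values were divided by 6956 bases, those of the others by 3422 (Mcm5) to 4666 (Mcm6). In reads it was close to Mcm3. Mcm2 had 2913 and 2691 reads in mutants and 3606, 2907 and 3174 in controls. Mcm3 had 3176 and 3076 reads in mutants and 3409, 3087 and 3183 in controls. The largest share was that of Mcm4, at 20.5% and 22.1% in mutants and 18.4%, 20.7% and 20.6% in controls, except that Mcm5 and Mcm7 led in control replicate 1, at 19.9% each.

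**Figure D4:**
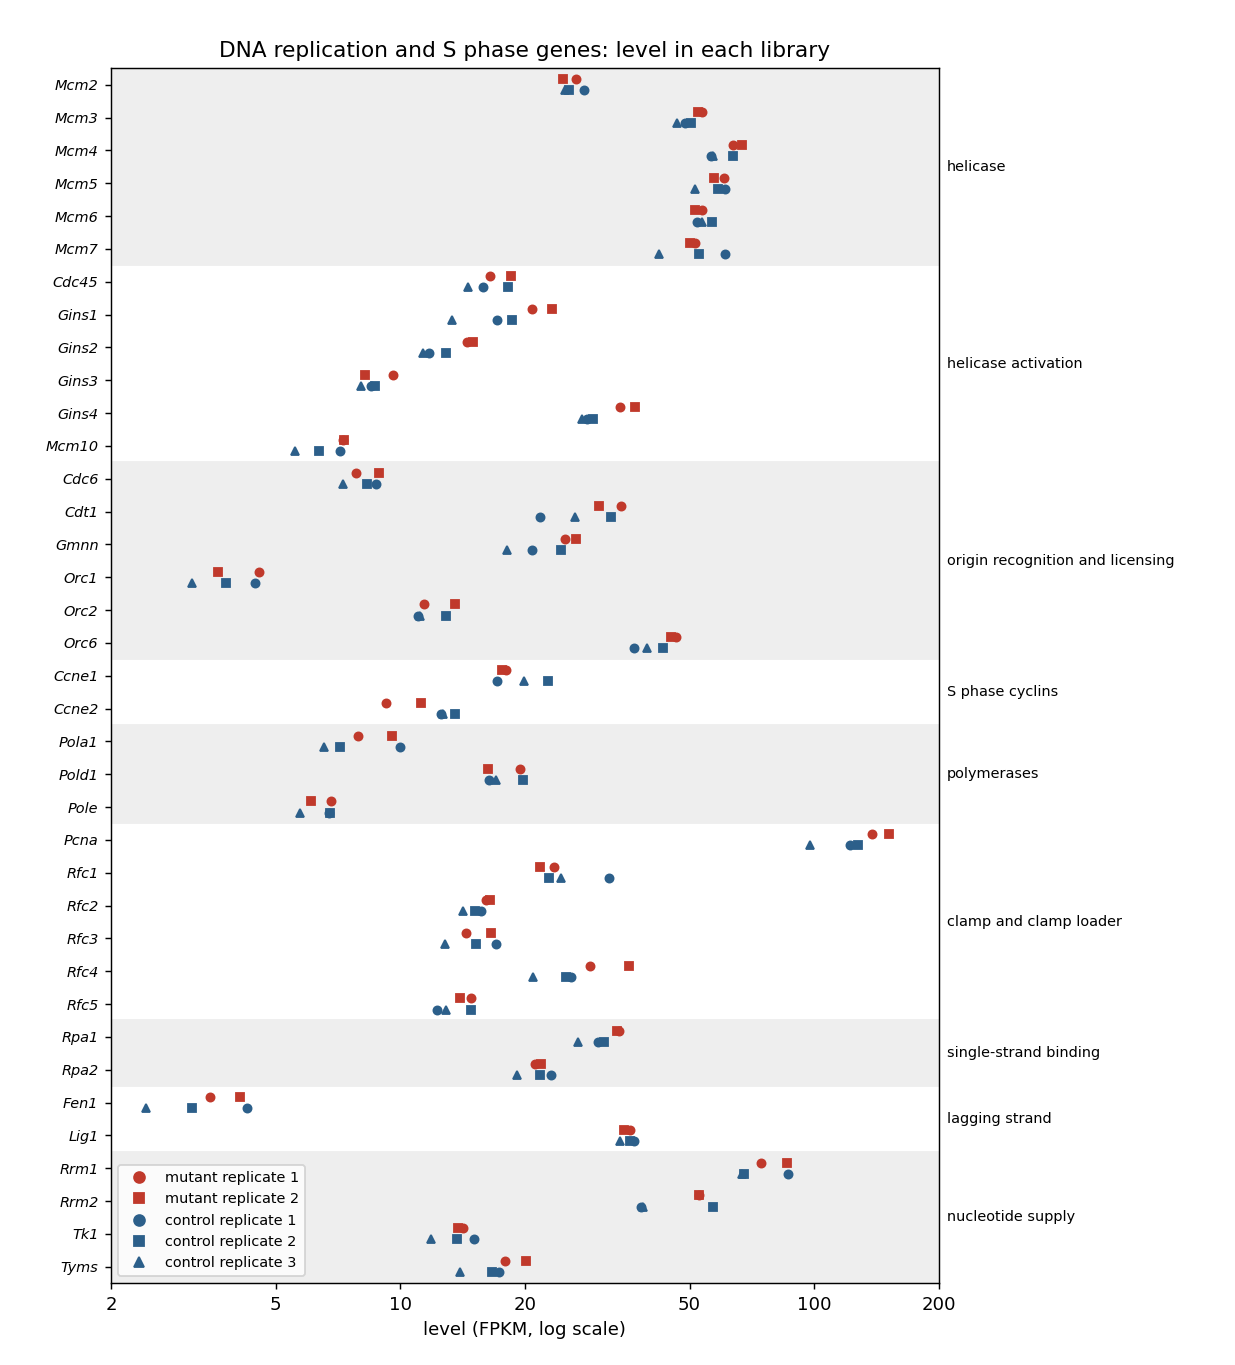
FPKM on a log scale of the 37 genes in each library, mutants (red) above controls (blue) within each row, grouped by role. Pcna is the highest at 97.8 to 152 FPKM and Fen1 the lowest at 2.42 to 4.27 FPKM, and within most rows the groups overlap or sit close together.

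The helicase activators held 3 of the 5 members with an unadjusted p under 0.05, all subunits of GINS, a complex of 4 proteins that joins Cdc45 and MCM in the active helicase. Gins1 was at 20.8 and 23.3 FPKM in mutants and 17.1, 18.6 and 13.3 FPKM in controls, 35.1% higher on average (log2 change 0.42, SE 0.15, limma adjusted p = 0.193). Gins4 was at 34.0 and 37.0 FPKM in mutants and 28.2, 29.3 and 27.5 FPKM in controls (log2 change 0.32, SE 0.10, adjusted p = 0.153). Both mutants stood above every control for both genes, and the controls of Gins4 had a coefficient of variation of 3.17%. Gins2 was at 14.5 and 15.0 FPKM in mutants and 11.7, 12.9 and 11.4 FPKM in controls (log2 change 0.28, SE 0.11, adjusted p = 0.222). Gins2 shares 67.3% of its exon bases with Gse1 on the opposite strand in GENCODE M21, and since the use of strand in counting is not given, reads of the 2 genes may not be told apart. Gse1 had a log2 change of 0.0047.

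The fourth subunit, Gins3, had overlapping groups, at 9.60 and 8.21 FPKM in mutants and 8.499, 8.70 and 8.06 FPKM in controls (log2 change 0.07). The levels of the 4 GINS genes were thus unequal in every library, with Gins4 highest and Gins3 lowest per length. Mcm10, which helps the helicase start, was at 7.27 and 7.29 FPKM in mutants and 7.14, 6.35 and 5.55 FPKM in controls (adjusted p = 0.522), with control replicate 1 just under the mutants. Cdc45 had a log2 change of 0.11 with overlapping groups.

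The E-type cyclins, which drive entry into S phase with Cdk2, were both negative in change, the only role group of which this held in the main fit. With TPM all 37 members were negative. With the male share as a covariate all polymerase and lagging strand genes were negative as well. Ccne2 was at 9.22 and 11.2 FPKM in mutants and 12.5, 13.6 and 12.7 FPKM in controls, 20.8% lower on average (log2 change -0.31, SE 0.12, limma adjusted p = 0.217). Without mutant replicate 1, the lower of the 2, the change was -0.18. It was the 1 member with both mutants below all controls, and its controls had a coefficient of variation of 4.33%. Ccne2 shares 17.4% of its exon bases with Ints8 on the opposite strand, which had a log2 change of 0.01. Ccne1 was at 18.0 and 17.6 FPKM in mutants and 17.1, 22.8 and 19.9 FPKM in controls (log2 change -0.15), with overlap. The ratio of Ccne1 to Ccne2 was 1.95 and 1.56 in mutants and 1.37, 1.68 and 1.58 in controls. The groups overlapped (two-sided exact permutation p = 0.5).

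Pcna, the sliding clamp that holds polymerases on DNA, was the most abundant of the 37 genes per length. It was at 138 and 152 FPKM in mutants and 122, 128 and 97.8 FPKM in controls (log2 change 0.33, SE 0.14, limma adjusted p = 0.276). The groups did not overlap, and control replicate 3 was far below the other libraries. Without it the change was 0.21. A block for the replicate number gives the same value by design, since replicate 3 has no mutant. With the male share as a covariate the change was 0.09. Rfc4, a subunit of the clamp loader, was at 28.7 and 35.7 FPKM in mutants and 25.8, 25.1 and 20.9 FPKM in controls (log2 change 0.41, SE 0.14, adjusted p = 0.179). It shares 12.7% of its exon bases with the oppositely transcribed Eif4a2, which had a log2 change of -0.26 (adjusted p = 0.269) and both mutants below all controls. Without mutant replicate 2 the change of Rfc4 was 0.26. Rfc2 was at 16.1 and 16.4 FPKM in mutants and 15.7, 15.1 and 14.2 FPKM in controls (adjusted p = 0.628). The other loader subunits overlapped between groups, with log2 changes of -0.20 for Rfc1, 0.04 for Rfc3 and 0.11 for Rfc5. Rfc1 was at 23.5 and 21.8 FPKM in mutants and 31.9, 22.9 and 24.4 FPKM in controls, and without control replicate 1 its change was -0.06.

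No polymerase gene reached the threshold. The catalytic subunits Pola1, Pold1 and Pole, which start and extend the strands, had log2 changes of 0.14, 0.01 and 0.01, and their groups overlapped. The change of Pola1 ran from 0.02 without mutant replicate 2 to 0.31 without control replicate 1, and with a covariate it was 0.56 (log2 Epcam) or -0.13 (male share). Rpa1, the large subunit of the single-strand binding protein, was at 33.8 and 33.4 FPKM in mutants and 30.0, 31.1 and 26.8 FPKM in controls (adjusted p = 0.39), while Rpa2 had a log2 change of 0.02. Lig1, the ligase that joins lagging strand fragments, was at 35.9 and 34.7 FPKM in mutants and 36.8, 35.9 and 34.0 FPKM in controls (log2 change -0.01). Fen1, the flap nuclease of the same step, was at 3.46 and 4.09 FPKM in mutants and 4.27, 3.14 and 2.42 FPKM in controls. Of the exon bases of Fen1, 84.2% are shared with other annotated genes, chiefly the antisense gene Gm10143, so its low level may not be comparable with that of Lig1.

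Genes of nucleotide supply did not reach the threshold either. Tyms, which makes thymidylate, was at 17.9 and 20.1 FPKM in mutants and 17.3, 16.6 and 13.9 FPKM in controls (log2 change 0.24, SE 0.13, adjusted p = 0.369), with no overlap. Rrm2, the regulated subunit of ribonucleotide reductase, was at 52.7 and 52.8 FPKM in mutants and 38.2, 57.1 and 38.5 FPKM in controls. Its 2 mutants lay between the controls, of which replicate 2 was high, and without that library the change was 0.45 (adjusted p = 0.11). Rrm1, the large subunit, and Tk1, a thymidine kinase, had log2 changes of 0.13 and 0.05.

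Control replicate 3 was the lowest of the 5 libraries for 25 of the 37 members (67.6%), where it was the lowest for 14.1% of all genes tested. It was the highest for 0 members. The median deviation of the members from their 5-library mean, on the log2(FPKM + 1) scale, was 0.06 and 0.10 in mutants and -0.01, 0.02 and -0.16 in controls. For all genes tested it was 0.02 and -0.10 in mutants and 0.03, 0.00 and 0.05 in controls, so the low values of control replicate 3 were not those of the library as a whole. Without that library the median log2 change of the members was 0.04, against -0.046 for all genes tested. Of the members, 22 were positive and 15 negative, and 0 passed. When the male share was fitted as a covariate, the median of the members was -0.027, with 17 positive and 20 negative. That of all genes tested was -0.057 in this fit. Control replicate 3 also had the least Y-linked RNA of the 5. It had the most heart muscle RNA (3 markers summing to 111 and 311 FPKM in mutants and 166, 157 and 722 FPKM in controls). Mesenchymal RNA was highest there too (7 markers summing to 1694 and 1441 FPKM in mutants and 1800.5, 1811 and 2341 FPKM in controls). By summed markers it further had the least epithelial (257 FPKM) and red blood cell RNA (3610 FPKM). Endothelial (99.3 FPKM), neuronal (62.1 FPKM) and macrophage RNA (17.9 FPKM) were highest there. For skeletal muscle, cartilage and mesothelial markers it was not at an extreme. The part of these differences in the low replication values was not tested.

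**Figure D5:**
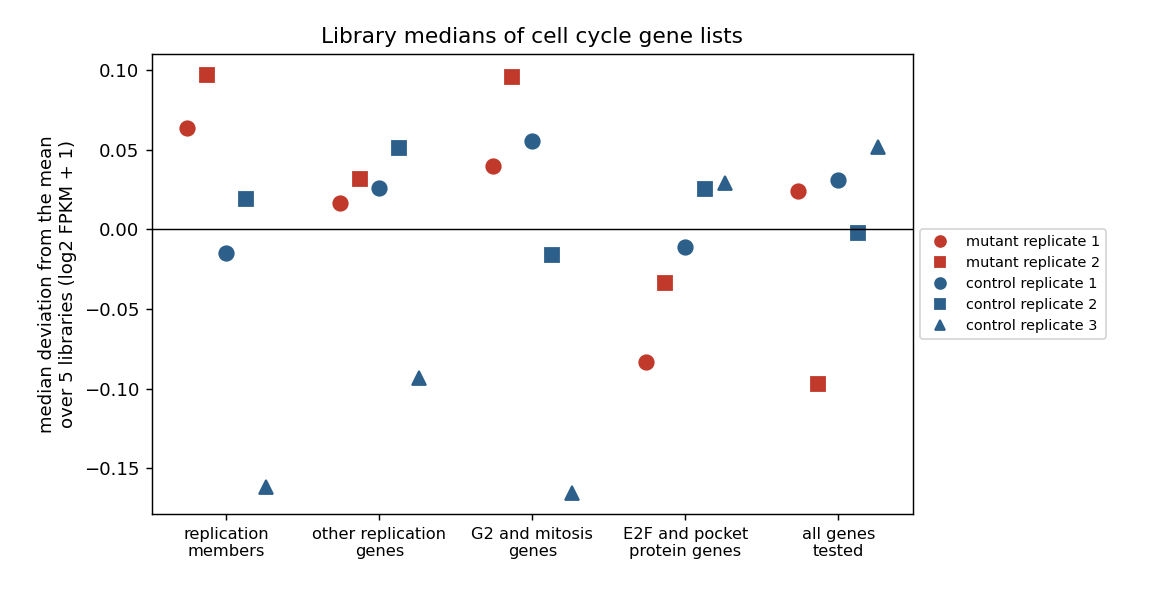
Median deviation of each gene list from its mean over the 5 libraries (log2 FPKM + 1), 1 point per library. Control replicate 3 lies at -0.16 for the replication members, -0.09 for other replication genes and -0.17 for G2 and mitosis genes, but at 0.05 for all genes tested.

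The further cell cycle lists held no gene past the threshold. Of 49 further replication genes, 0 passed (limma; 2 at an unadjusted p under 0.05 and 0 by voom), with 32 positive and 17 negative changes and a median of 0.05. The smallest p-values were those of Dut, which keeps uracil out of DNA, at 42.8 and 42.6 FPKM in mutants and 29.2, 39.4 and 30.2 FPKM in controls (adjusted p = 0.216), and of Rpa3, the small subunit beside Rpa1 and Rpa2, at 39.4 and 45.3 FPKM in mutants and 34.5, 36.9 and 29.9 FPKM in controls (adjusted p = 0.233). Of 22 G2 and mitosis genes, 0 passed (1 at an unadjusted p under 0.05 and 0 by voom). Their lowest p was that of Cdk1, the mitotic kinase, at 53.3 and 61.4 FPKM in mutants and 49.7, 47.9 and 38.9 FPKM in controls (adjusted p = 0.253). Cdc20, an activator of the anaphase ubiquitin ligase, came next with a log2 change of 0.29 (adjusted p = 0.303). The proliferation markers Mki67 and Top2a had log2 changes of 0.06 and 0.05.

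Of 13 E2F and pocket protein genes, 0 passed (3 at an unadjusted p under 0.05, all lower, and 0 by voom). Their changes were positive for 4 and negative for 9 with a median of -0.08, close to all genes tested, of which 38.9% were positive with a median of -0.06. Rb1, the pocket protein that restrains E2F, was at 2.95 and 2.47 FPKM in mutants and 4.32, 3.76 and 4.75 FPKM in controls (log2 change -0.51, SE 0.14, adjusted p = 0.118). E2f2, an activating E2F, was at 3.37 and 3.57 FPKM in mutants and 6.17, 5.54 and 4.34 FPKM in controls (adjusted p = 0.147). Both genes had mutants below every control, at low levels. E2f1, another activating E2F, had a log2 change of -0.05.

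Upstream of S phase, Cdkn1a, which encodes the cyclin-dependent kinase inhibitor p21, rose to 48.9 and 42.4 FPKM in mutants, against 13.3, 9.68 and 11.4 FPKM in controls (log2 change 1.91, SE 0.15, limma adjusted p = 0.00618). Ccnd1, the cyclin of G1, was at 43.2 and 36.1 FPKM in mutants and 58.6, 45.3 and 50.4 FPKM in controls (log2 change -0.36, adjusted p = 0.223). The 12 members with an E2F match in the promoter had a median log2 change of 0.05. The 17 with a promoter and no match had one of 0.13. The ranges overlapped, from -0.04 to 0.27 and from -0.20 to 0.41. Members without a matched promoter are in neither set, among them Gins1, Gins2, Gins4 and Ccne2, each at an unadjusted p under 0.05 (limma).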

How the data were processed

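The authors deposited a single FPKM table (reads scaled by gene length and by the depth of the library) of 19699 gene entries and 5 columns, and its name gives the unit. The genome build was GRCm38 (mm10), per the submitters' processing notes. For the aligner, counter, annotation and strand setting, the step is not given in the sources used here. FPKM values moved in steps of single reads in 100% of the entries (relative tolerance 1e-09), so reads per gene were recovered, save for any factor common to all 5 columns. Gene lengths equalled the summed exons of GENCODE M21 for 13965 entries.

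Genes with at least 1 FPKM in at least 2 libraries, 12838 in all, were tested with limma 3.58.1 (trend, two-sided) on log2(FPKM + 1), with Benjamini-Hochberg adjustment over all of them and a threshold of 0.05. The steps were tested on simulated data, where the check asked only that large changes be mostly called and have the right sign. It does not cover changes as small as those of the members. Positions and exon overlaps came from GENCODE M21 (GRCm38), and promoters, 250 bases before to 50 after the start, from RefSeq (GRCm38.p6). The members and lists were chosen with earlier results of these data known. Every member was given, those with groups that did not overlap in every library, with the 2 smallest p-values of each further list. Gse1, Ints8 and Eif4a2 were added because their exons overlap a member. The alternatives were other pseudocounts, filters, scalings, covariates, voom on the recovered reads, a replicate block and leaving out each library.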

Additional observations from a re-analysis of the deposited data

How the results depend on the processing

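Across 18 alternatives 0 of the 37 replication genes, and 0 genes of the 3 further lists, passed the threshold, at adjusted p of 0.11 or more for each member. The count over all genes, 303, was 69 with no filter, 67 with TPM, 610 with voom, 55 with the male share and 20 with log2 Epcam as a covariate, and 4 to 284 when 1 library was left out. It was 4 without mutant replicate 1 and 11 without mutant replicate 2, where the lone mutant is assumed to vary like the controls. Of its calls 41.9% were higher in mutants, but 50.2% with median ratio scaling, 53.6% with quantile normalization, 14.9% with TPM, 28.8% with TPM without Gm23935 and 58.0% with no filter. The median change of the members, 0.11, was -0.44 with TPM and -0.027 with the male share, and TPM also moved the median of all genes to -0.59. Less the median of all genes, it ran from 0.03 with the male share to 0.27 with log2 Epcam. The mutant to control ratio of the summed Mcm2 to Mcm7 level, 1.03, was 0.715 with TPM. With the replicate number as a block, 259 genes and 0 members passed. Its change for each gene equals that without control replicate 3, which is alone in its block. The deviations of same-numbered libraries from their group means correlated at -0.07 and 0.02. The 2 mutant deviations mirror each other, so these values cannot tell whether such libraries shared a litter or batch. The difference of the Cdt1 to Gmnn ratio was -0.03, and -0.14 to 0.09 when 1 library was left out. Depth limits Fen1 and Orc1 most.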
